A study of Schizosaccharomyces pombe with 15 samples.

Results

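The mug genes of fission yeast (Schizosaccharomyces pombe), whose name stands for meiotically upregulated, were set against maps of 4 DNA-bound proteins. The members are the protein-coding genes of the RefSeq annotation (assembly ASM294v3) whose symbol is mug followed by a number, 91 of the 5113 protein-coding genes on chromosomes 1 to 3. A gene counted as bound when a summit, the highest point of a peak, lay within 1000 bp before or 200 bp after its annotated start, here called its window. All 91 members and 5004 other genes had a usable window. Another 85 genes carry a mug number only as an older name and stand among the others.

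Peaks came from chromatin immunoprecipitation and sequencing with an antibody against the FLAG tag, with 1 list each for Atf1, Pcr1, Deb1 and Orc1. Per the labels' protocols, cells grew at 32 °C in rich medium and were held at 18 °C for 2 hours before fixation, which no label describes as a meiotic culture. All strains were h90, a mating type that switches, and carried ade6-M210, leu1-32 and ura4-D18. The Atf1 strain carried atf1-3xFLAG-hph and the Pcr1 strain pcr1-3xFLAG-hph, both with cenH replaced by 9xtetO-ura4. The Deb1 strain carried deb1-3xFLAG-hph, and the Orc1 strain, labelled SPM1047, carried orc1::5xFLAG-orc1-kan. Each of these 4 groups had 2 precipitations, and the Deb1 and Orc1 strains had 2 inputs each. There was 1 untagged precipitation, and the 2 Atf1 precipitations from a strain with s1 and s2 deleted have no list used here. With 1 list per protein no spread between replicates can be given, the depth per sample is unknown, and no difference below was tested.

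Meiosis in fission yeast is started by starvation and mating. The HMG-box factor Ste11 switches on early genes through a sequence called the TR box, and the forkhead factor Mei4 later switches on middle meiotic genes through elements with the core GTAAACA. Atf1 and Pcr1 are bZIP factors that bind the ATF/CRE core TGACGT together, in stress and in sexual development. Deb1 also binds DNA, and Orc1 belongs to the origin recognition complex, which marks where DNA replication starts. Many mug genes have no assigned molecular function.

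Mug promoters held peaks about as often as other promoters. An Atf1 summit lay in the window of 23 of 91 mug genes (25.3%, exact Clopper-Pearson 95% interval 16.7 to 35.5), beside 26.3% of others. For Pcr1 the count was 20 of 91 (22.0%, 14.0 to 31.9) beside 20.6% of others. A Deb1 summit stood at 6 of 91 (6.59%, 2.46 to 13.8) beside 6.22% of others. For Orc1 it was 17 of 91 (18.7%, 11.3 to 28.2) beside 15.6% of others. The intervals cover counting error only. The differences, mug minus other, were -1.04 percentage points in Atf1, 1.41 in Pcr1, 0.38 in Deb1 and 3.11 in Orc1, and each background share lay inside the interval of the mug share.

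**Figure D1:**
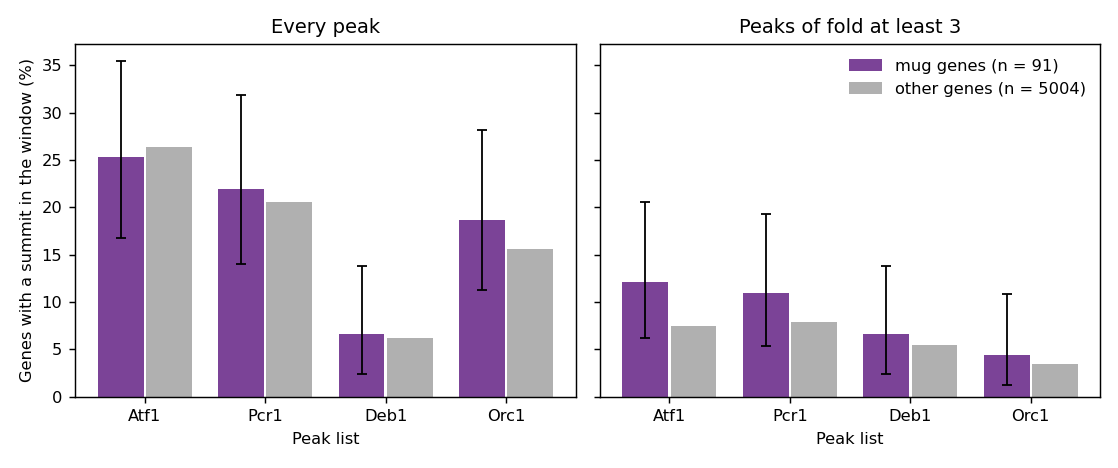
Percent of genes with a summit in the promoter window for each peak list (x axis), for mug genes and for other protein-coding genes, with every peak (left) and with peaks of fold at least 3 (right); bars start at 0 and error bars are exact 95% intervals of the mug share. Every grey bar lies inside the interval of the mug bar beside it, for example 26.3% beside an interval of 16.7 to 35.5% for Atf1.

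The mug genes that had a summit had, in the median, a taller peak than other genes with one. Peak height is given as the fold enrichment, the ratio over the control that the authors' peak caller assigned. Among genes with an Atf1 summit, the median fold of the highest peak was 2.95 over 23 mug genes and 2.42 over 1317 other genes. The Pcr1 medians were 3.00 over 20 mug genes and 2.64 over 1029 others. The Deb1 medians were 4.99 over 6 mug genes and 4.60 over 311 others, and the Orc1 medians 2.62 over 17 and 2.33 over 779. All 4 medians were thus higher in mug genes, by less than the spread among members, whose Atf1 folds ran from 1.73 to 5.49. The medians include summits nearer to another gene, such as at mug108, mug124 and mug150, and peaks at repeats, such as at mug51 and mug163. They were not taken again without such peaks, in mug genes or in others. An Atf1 summit of fold at least 3 was found at 11 mug genes (12.1%, interval 6.19 to 20.6) beside 7.45% of others, and a Pcr1 summit of that height at 10 (11.0%, 5.40 to 19.3) beside 7.89%. For Deb1 it was all 6 (6.59%) beside 5.48%, and for Orc1 4 (4.40%, 1.21 to 10.9) beside 3.46%. With −log10 q, the authors' significance of a peak, of at least 10 in place of the fold, the counts were 13 for Atf1 (14.3%) beside 12.3%, 11 for Pcr1 (12.1%) beside 9.99%, 6 for Deb1 (6.59%) beside 6.18% and 13 for Orc1 (14.3%) beside 10.1%. Under both thresholds the mug share was the larger for every list, and each background share again lay inside the mug interval.

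In all, 40 mug genes had a summit of at least 1 list (44.0%) beside 38.8% of others, and 51 had none. At least 1 of Atf1 and Pcr1 was found at 28 (30.8%) beside 29.3% of others. Their summits occurred together at 15 members (16.5%) beside 17.5% of others. Atf1 and Pcr1 were the only lists at 10 of the 15 (11.0% of 91), beside 9.87% of others. These were mug16, mug24, mug33, mug84, mug116, mug143, mug147, mug150, mug184 and mug191. Deb1 joined Atf1 and Pcr1 at mug51 and mug108 (2.20%, beside 2.78%), and Orc1 did at mug14, mug112 and mug153 (3.30%, beside 3.66%). Atf1 without Pcr1 was seen at 8 members (8.79%) beside 8.77% of others, and Pcr1 without Atf1 at 5 (5.49%) beside 3.02%. The most frequent pattern with no Atf1 or Pcr1 was Orc1 alone, at 11 members (12.1%) beside 8.29% of others. No mug gene of 91 had summits of all 4 lists in its window (interval up to 3.97%), beside 1.24% of others. Where Atf1 and Pcr1 both had summits, these lay close together. The nearest pair was a median of 38 bp apart and within 100 bp at 13 of the 15 members, the exceptions being mug143 (199 bp) and mug184 (297 bp). This distance was measured at members only, so it has no background beside it and is not shown to be particular to mug genes.

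**Figure D2:**
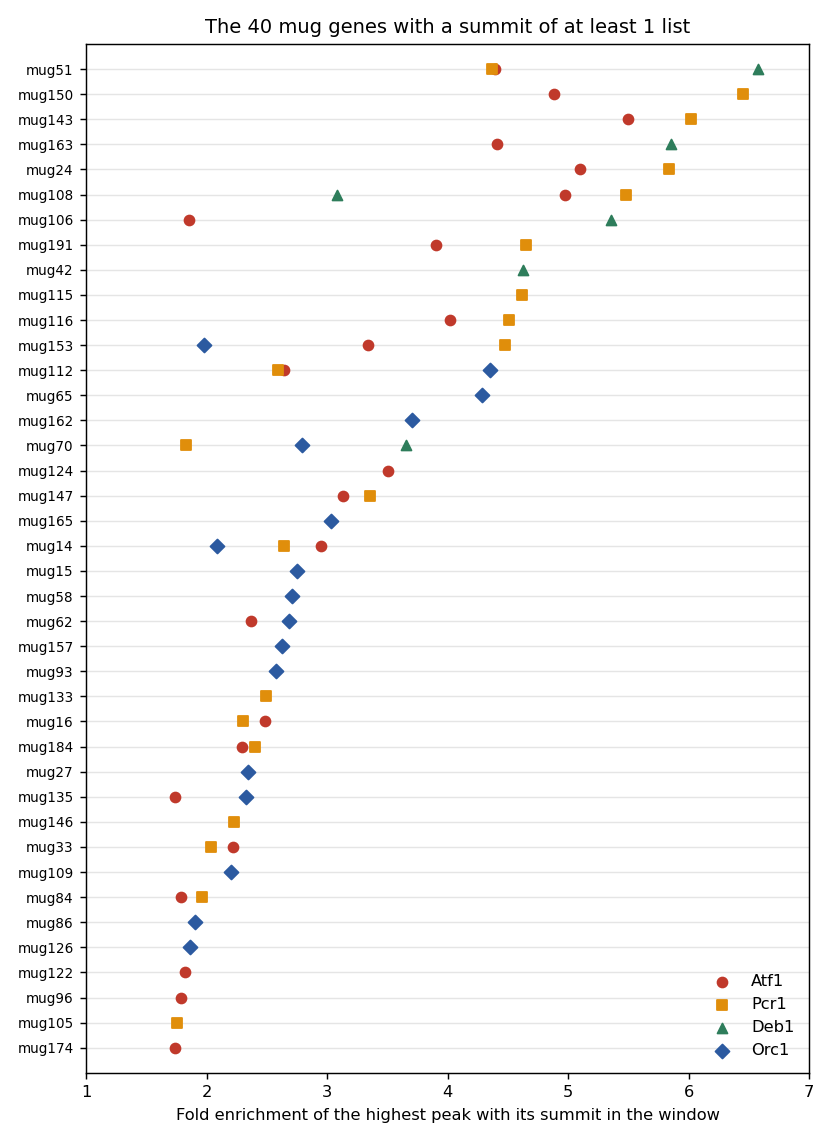
Fold enrichment (x axis) of the highest Atf1, Pcr1, Deb1 and Orc1 peak with its summit in the promoter window, 1 line for each of the 40 mug genes with a summit of at least 1 list, ordered by the tallest peak. The upper lines reach 6.57-fold for Deb1 at mug51 and 6.45-fold for Pcr1 at mug150, the tallest Orc1 peaks are 4.35-fold at mug112 and 4.28-fold at mug65, and the lowest line is a 1.74-fold Atf1 peak at mug174.

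The tallest Atf1 and Pcr1 peaks stood together at a small set of members. At mug143 (SPAC167.06C), whose product has no described function, the Atf1 peak had a fold of 5.49 and rank 8 of 1995 (chromosome 1, 1549410 to 1550658). Its summit was 36 bp upstream of the start, with TGACGT within 100 bp, while the summit of the 6.02-fold Pcr1 peak (rank 21 of 1567) lay 163 bp downstream of the start, inside the coding span. The mug24 gene encodes an RNA-binding protein. It had an Atf1 peak of 5.10-fold with its summit 307 bp upstream and a Pcr1 peak of 5.84-fold 323 bp upstream, again with TGACGT within 100 bp of both. Both factors thus peaked at nearly the same place before mug24. The annotated start of mug143 is overlapped by dbs2 on the other strand. Another protein-coding gene overlaps the start of 14 members in all, among them also mug62, mug108 and mug112. This was not counted for other genes, so it has no background beside it.

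At mug116 the folds were 4.02 for Atf1 and 4.51 for Pcr1, with summits 332 and 397 bp upstream. At mug191, annotated as an alpha-1,6-mannanase, a type of enzyme that cuts mannose chains, they were 3.91 and 4.65, with summits 41 and 94 bp upstream. Neither place held TGACGT within 100 bp. At mug153 the summits of the 3.34-fold Atf1 and the 4.47-fold Pcr1 peak lay just inside the gene, at 190 and 188 bp downstream. At mug115 only Pcr1 had summits, of 4.62-fold at 131 bp downstream and 3.12-fold at -683 bp, the last nearer to SPAC56F8.15. Of the 28 mug genes with an Atf1 or Pcr1 summit, 5 had TGACGT within 100 bp of one (17.9%), and of 1468 such other genes 246 did (16.8%). The 5 were mug24, mug124, mug143, mug147 and mug150, or 5 of all 91 beside 4.92% of all others.

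To show places with and without the ATF/CRE core, stretches at 4 of these summits were centred midway to any core within 100 bp. The sequence of these stretches is given below. It was read from the ASM294v3 genome 5′ to 3′ on the strand of the mug gene, outside annotated untranslated regions, with TGACGT in capitals:
mug150, chr3:1301766-1301885, minus strand: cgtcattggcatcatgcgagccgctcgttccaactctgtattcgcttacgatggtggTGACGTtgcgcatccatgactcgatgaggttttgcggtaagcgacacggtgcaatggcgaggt
mug24, chr3:1918910-1919029, plus strand: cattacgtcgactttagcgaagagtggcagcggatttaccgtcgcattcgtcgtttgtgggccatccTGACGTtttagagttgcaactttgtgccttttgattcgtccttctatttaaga
mug191, chr1:2073614-2073733, minus strand: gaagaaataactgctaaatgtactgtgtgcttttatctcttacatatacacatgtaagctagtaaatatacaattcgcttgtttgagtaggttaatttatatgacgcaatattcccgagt
mug116, chr1:1494214-1494333, plus strand: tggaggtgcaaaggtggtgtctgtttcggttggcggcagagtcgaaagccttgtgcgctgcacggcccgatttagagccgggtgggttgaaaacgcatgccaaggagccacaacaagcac
The core stands in the mug150 and mug24 windows and in neither of the others.

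Several of these peaks lay nearer to the start of another gene. Of the 23 members with an Atf1 summit, 16 had one for which the mug gene itself was the nearest protein-coding start (17.6% of 91) beside 20.5% of others. For Pcr1 it was 18 of 20 (19.8% of 91, beside 16.1% of others), for Deb1 5 of 6 (5.49%, beside 4.90%) and for Orc1 16 of 17 (17.6%, beside 13.0%). The tallest case was mug150, which shares a divergent promoter of 982 bp with srk1, a kinase gene of the stress response. The 6.45-fold Pcr1 summit, rank 5 of 1567, stood at -871 bp from the mug150 start and 112 bp from that of srk1, and the 4.88-fold Atf1 summit at -942 bp and 41 bp. Likewise the 3.50-fold Atf1 summit of mug124 stood at -961 bp from its start but 118 bp from that of fba1, the glycolytic aldolase gene, across a gap of 1078 bp.

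At mug108 the 4.97-fold Atf1 and 5.48-fold Pcr1 summits stood at -663 and -618 bp, nearer to SPAC29A4.22 (539 and 494 bp). The weaker Atf1 summits at mug33, mug96, mug122 and mug174, of 1.70- to 2.21-fold, were likewise nearest to cox13, SPBC1271.07C, rpl1902 and cdc31. A summit in a shared promoter does not tell which gene it serves.

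**Figure D3:**
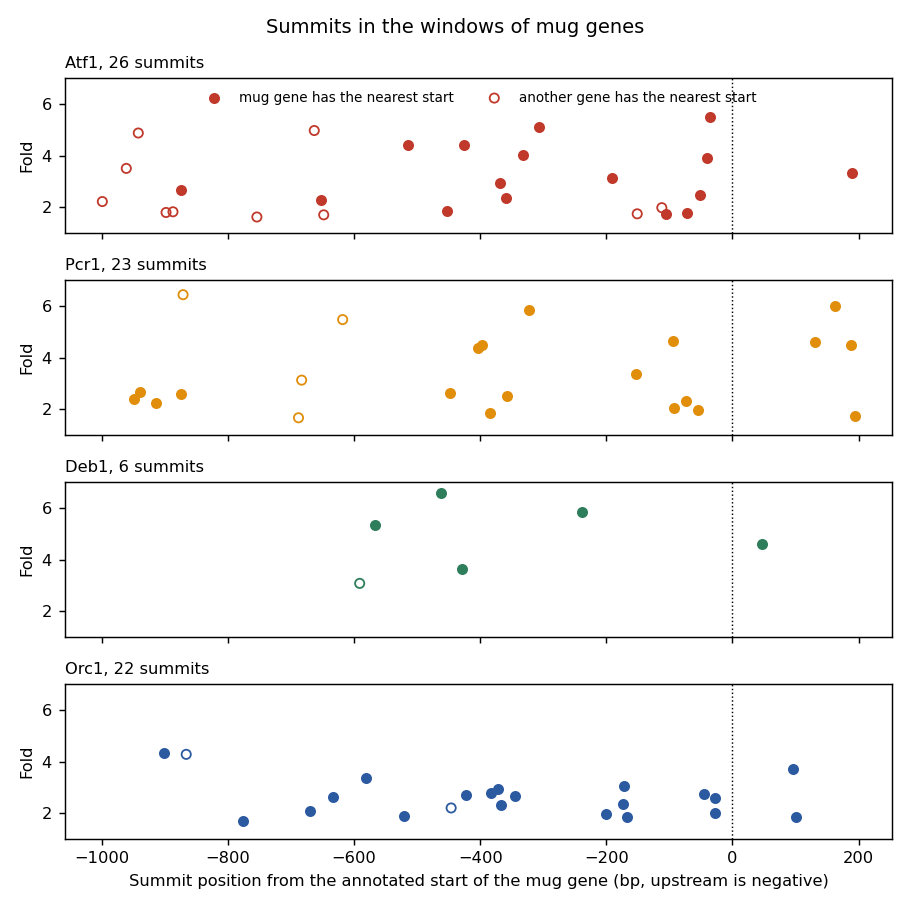
Summit position from the annotated start of the mug gene (x axis, bp, upstream negative) and fold (y axis) for each of the 26 Atf1, 23 Pcr1, 6 Deb1 and 22 Orc1 summits in mug windows; filled points mark summits whose nearest protein-coding start is the mug gene, open points those nearer to another gene. Open points include the tallest Pcr1 summit, 6.45-fold at -871 bp from the mug150 start.

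Atf1 summits lay further upstream at mug genes, with a median position of -398 bp over 26 summits, beside -219 bp over 1459 gene and summit pairs of the others. The Pcr1 medians were -385 and -260 bp, and the Deb1 medians -446 and -260 bp. Orc1 went the other way, with -370 bp at mug genes and -449 bp at others. With so few summits per list these medians are a description only. Positions are measured from the annotated start, which was the start codon itself in 37.4% of mug genes and 11.3% of others. The part this plays in the medians was not tested. Just inside the window were Atf1 summits at mug33 (-999 bp, 2.21-fold) and mug124 (-961 bp), a Pcr1 summit at mug105 (194 bp, 1.75-fold) and the Atf1 summit at mug153. Just outside were a Pcr1 summit of mug124 (-1033 bp, 3.99-fold), a Deb1 summit of mug105 (-1047 bp, 4.24-fold), an Atf1 summit of mug121 (241 bp, 1.92-fold) and a Pcr1 summit of mug114 (203 bp).

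That last summit belongs to one of the tallest peaks near any member. At mug114, a gene of unknown function, Pcr1 had a fold of 5.87 (rank 27 of 1567, chromosome 1, 2663695 to 2665144) and Atf1 a fold of 4.69 (rank 69 of 1995). Their summits, and that of a 2.08-fold Deb1 peak, lay 203 to 264 bp inside the gene with TGACGT within 100 bp. Coding spans, introns included, held an Atf1 summit in 9 members (9.89%) beside 10.9% of others, a Pcr1 summit in 9 (9.89%) beside 7.35%, a Deb1 summit in 4 (4.40%, interval 1.21 to 10.9) beside 0.5% and an Orc1 summit in 7 (7.69%) beside 5.02%. The 4 Deb1 cases were mug42, mug94, mug114 and mug124, with peaks of rank 150, 324, 345 and 182 of 351. The mug42 summit also lay in its window and is counted there too. For mug94 summits of all 4 lists lay in the coding span, 357 to 483 bp from the start. There Atf1 had a fold of 1.97, Pcr1 of 2.90, Deb1 of 2.39 and Orc1 of 1.87, all under 3. Counting windows and coding spans together, 46 members had a summit and 45 had none. This combined count was not made for other genes, so it has no background beside it.

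Deb1 had summits at 6 members, and a repeat lay under the 3 tallest. At mug51, annotated in the protein kinase 19 family as a variant, the fold was 6.57 (rank 20 of 351, chromosome 1, 4715739 to 4716436). At mug163 it was 5.85 (rank 58) and at mug106 5.35 (rank 87), both genes of unknown function. Each of these 3 peaks touched an annotated long terminal repeat, a remnant of a retrotransposon, as did 88 of 250 Deb1 peaks (35.2%) in windows of other genes. The peaks at mug106 and mug163 shared an identical run of 221 bases, and each shared 122 bases with the peak at mug51. Reads from such copies can be placed at more than 1 of them, so these 3 peaks may not be independent, and the part this plays in their height was not tested. For all 3 the recorded summit fell outside the interval, so its midpoint was used.

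The mug163 stretch below was centred midway between its midpoint and the word GGTAACA, the other stretches on their midpoints. The sequence is given to show part of the shared repeat, in ASM294v3 and on the strand of the mug gene, with the word or its complement in capitals:
mug51, chr1:4716029-4716148, plus strand: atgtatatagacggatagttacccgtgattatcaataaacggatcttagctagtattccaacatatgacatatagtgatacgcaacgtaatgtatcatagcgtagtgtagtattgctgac
mug163, chr3:2148256-2148375, plus strand: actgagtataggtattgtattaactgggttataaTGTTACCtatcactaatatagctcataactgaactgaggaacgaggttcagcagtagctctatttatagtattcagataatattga
mug106, chr1:5175922-5176041, minus strand: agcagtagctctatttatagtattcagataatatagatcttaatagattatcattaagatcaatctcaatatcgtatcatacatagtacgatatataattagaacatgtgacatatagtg
The word stands in the mug163 stretch alone, and the mug163 and mug106 stretches overlap in the shared run. Atf1 peaks accompanied Deb1 at all 3, with 4.39-fold at mug51, 4.41-fold at mug163 and 1.85-fold at mug106. These 3 Atf1 peaks also touched a repeat (3 of 26 in mug windows, beside 11.6% of Atf1 peaks in windows of others). So did the 4.37-fold Pcr1 peak at mug51, and the same caution on reads holds for them. The other Deb1 peaks touched no repeat, at mug42 (4.62-fold, 47 bp downstream of the start), mug70 (3.65-fold) and mug108 (3.08-fold). Near the Deb1 summits of mug70 and mug108 lay those of Pcr1, with Orc1 at mug70 only and Atf1 at mug108 only. The mug70 summits were at -429 bp for Deb1, -383 bp for Orc1 (2.79-fold) and -385 bp for Pcr1 (1.83-fold). GGTAACA, a word chosen with earlier results of these lists known, lay within 100 bp of 2 of the 6 Deb1 summits, at mug42 and mug163, and of 75 of 250 (30.0%) in windows of other genes.

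Orc1 had summits at 17 members, and 11 of them had no other list. The tallest were at mug112 (4.35-fold, rank 41 of 1526, 901 bp upstream) and mug65, a spore wall assembly gene (4.28-fold, -866 bp). The mug65 summit was 63 bp from the start of sxa2, a gene of a pheromone-degrading protease, on the far side of a gap of 928 bp, and a second Orc1 summit of 2.95-fold stood 372 bp from mug65 itself. Summits followed at mug162 (3.70-fold at 96 bp downstream and 3.37-fold at 581 bp upstream) and mug165 (3.03-fold). At mug112 weaker Atf1 (2.64-fold) and Pcr1 (2.59-fold) summits stood 874 and 875 bp upstream, close to that of Orc1, and at mug62 an Atf1 summit of 2.37-fold stood close to the Orc1 one. The remaining members had folds from 1.86 at mug126 to 2.79 at mug70. Among them were mug15 (2.75-fold), the glycerate kinase gene mug58 (2.71-fold), mug62 (2.68-fold), mug27, a protein kinase gene (2.34-fold), and mug86, an acetate transporter gene (1.90-fold).

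Fission yeast origins are rich in A and T, and the sequence within 150 bp of the 22 Orc1 summits averaged 68.6% AT (SD 2.82), beside 66.7% (SD 4.78) at 778 summits of others. Around the 26 Atf1 summits it was 61.1% (SD 5.97), beside 62.9% (SD 5.01) at 1179. The stretches at the 2 tallest mug Orc1 summits are given for their base composition, on the strand of the mug gene in ASM294v3:
mug112, chr3:1370101-1370220, minus strand: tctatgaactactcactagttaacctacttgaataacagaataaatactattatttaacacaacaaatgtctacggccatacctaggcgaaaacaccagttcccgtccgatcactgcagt
mug65, chr1:714453-714572, plus strand: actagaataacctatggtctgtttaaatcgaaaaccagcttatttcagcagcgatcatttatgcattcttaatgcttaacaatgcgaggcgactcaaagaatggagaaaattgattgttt
They hold 61.7% AT at mug112 and 65.0% AT at mug65.

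The remaining members had weaker peaks. Atf1 and Pcr1 stood together at mug147 (3.13- and 3.35-fold, 191 and 153 bp upstream), mug14 (2.95- and 2.64-fold), mug16 (2.49- and 2.30-fold), mug184 (2.29- and 2.40-fold) and mug84 (1.78- and 1.96-fold). Pcr1 alone stood at mug133 (2.49-fold), mug146 (2.22-fold) and mug105, a protease gene of the ubiquitin-fold modifier (1.75-fold). At mug135 a 1.73-fold Atf1 summit and a 2.33-fold Orc1 summit stood 105 and 367 bp upstream.

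By annotated function most classes of mug genes are too small to compare. Of 59 members with no known function, 24 had a summit of at least 1 list (40.7%), beside 38.8% of all genes outside the mug set. All 3 genes of the kinase or phosphatase class had one (mug27, mug51 and mug58), and so had 2 of 3 of the meiosis or spore class (mug65 and the Rab GTPase binding gene mug109) and 1 of 2 transporters (mug86), classes too small to set against that 38.8%. The 45 members with no summit in window or coding span included mug28 (an RNA-binding protein), mug56 (a spore wall assembly protein), mug30 (a ubiquitin ligase), mug73 (a transporter), mug151 (a transcriptional regulator), mug161 (a splicing factor), mug176 (a BRCT domain protein) and mug178 (a mitochondrial ribosomal protein). That count of 45 was not made for other genes. By window alone, 56.0% of mug genes had no summit of any list, beside 61.2% of others.

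The forkhead core, a word of proteins that were not mapped here, stood in more of the mug promoters than of the others, though not in most. No binding of Mei4 or of any other forkhead protein was measured, so the word alone does not tell which protein may use it. Promoters here are the 250 bases before and 50 from the annotated start, searched on both strands. The forkhead core GTAAACA stood in 44 of 91 mug promoters (48.4%, interval 37.7 to 59.1) beside 16.0% of other promoters. It was present in 2 or more copies in 15 of the 44 mug promoters and in 89 of 799 others. Its 61 copies in mug promoters had a median position of -94 bases from the start, beside -111 over 898 copies in others. A longer form, the core followed directly by AACA, stood in 11 mug promoters (12.1%, 6.19 to 20.6) beside 1.08% of others. The AT content of the promoters was close, 67.6% (SD 4.16, n = 91) in mug genes and 66.9% (SD 3.99, n = 5004) in others.

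**Figure D4:**
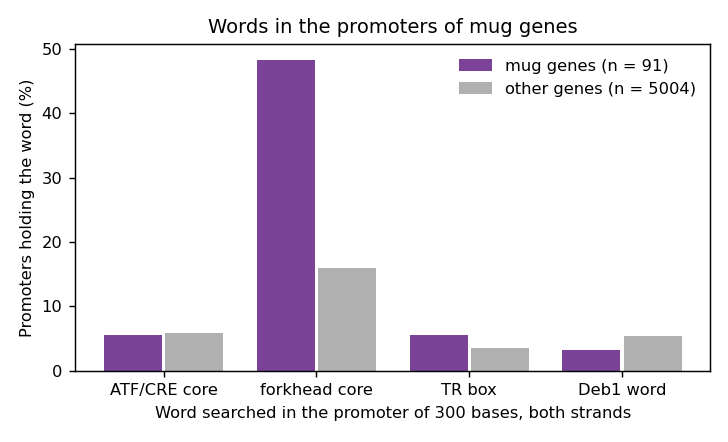
Percent of promoters of 300 bases (y axis) that hold each word on either strand, for 91 mug genes and 5004 other protein-coding genes; bars start at 0. The forkhead core stands in 48.4% of mug promoters beside 16.0% of others, and the ATF/CRE core in 5.49% beside 5.92%.

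The longer form is given in 6 of these promoters, chosen after their values were seen, to show its place and direction. The stretches are on the strand of the mug gene in ASM294v3, outside annotated untranslated regions, with the element or its complement in capitals:
mug125, chr1:1087280-1087340, minus strand: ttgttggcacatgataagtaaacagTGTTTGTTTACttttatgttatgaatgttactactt
mug103, chr1:1160056-1160116, minus strand: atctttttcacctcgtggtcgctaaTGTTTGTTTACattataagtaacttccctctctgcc
mug74, chr1:3094919-3094979, minus strand: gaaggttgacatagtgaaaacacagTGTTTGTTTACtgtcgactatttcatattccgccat
mug93, chr2:1461569-1461629, plus strand: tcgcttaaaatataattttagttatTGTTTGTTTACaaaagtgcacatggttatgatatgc
mug122, chr3:401798-401858, plus strand: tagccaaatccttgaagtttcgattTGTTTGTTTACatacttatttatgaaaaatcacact
mug27, chr3:1679578-1679638, minus strand: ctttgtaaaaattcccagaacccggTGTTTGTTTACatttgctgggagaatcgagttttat
Read along the mug gene, each of the 6 shows the complement of the element. Over all 11 promoters, 10 of 12 copies ran in that direction and 2 in the other, beside 32 and 23 copies in other promoters. Of the 6 genes, mug93 and mug27 had an Orc1 summit and mug122 an Atf1 summit in the window, and mug74, mug103 and mug125 had none. Over all 11 mug genes with the longer form, 4 had a summit of at least 1 list, beside 15 of 54 such other genes.

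The other words were near the background. TGACGT stood in 5 mug promoters (5.49%) beside 5.92% of others, at mug37, mug103, mug135, mug143 and mug147, and 3 of these had an Atf1 summit. The TR box TTCTTTGT stood in 5 (5.49%) beside 3.62%, at mug2, mug4, mug20, mug115 and mug170, and GGTAACA in 3 (3.30%) beside 5.36%. The peaks were counted at members with and without GTAAACA. An Atf1 summit was found at 11 of 44 members with GTAAACA (25%) and at 12 of 47 without (25.5%), beside 27.4% of other genes with the word and 26.1% without. For Pcr1 it was 8 of 44 (18.2%) and 12 of 47 (25.5%), beside 20.9% and 20.5%. For Deb1 it was 3 (6.82%) and 3 (6.38%), beside 6.63% and 6.14%. For Orc1 it was 10 (22.7%) and 7 (14.9%), beside 15.4% and 15.6%. Counted by summit, GTAAACA lay within 100 bp of 6 of 26 Atf1 summits in mug windows (23.1%), beside 10.0% in windows of others. It lay so near 4 of 23 Pcr1 (17.4%, beside 10.4%), 1 of 6 Deb1 (16.7%, beside 10.4%) and 3 of 22 Orc1 summits (13.6%, beside 10.8%).

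The annotation of mug genes differs from that of other genes in a way that bears on the window. The annotated start was the start codon itself, so that no 5′ untranslated region is given, in 34 of 91 mug genes (37.4%) and in 563 of 5004 others (11.3%). For such genes the window is set from the start codon. Atf1 summits were found at 6 of these 34 mug genes (17.6%) and at 17 of the other 57 (29.8%), beside 26.6% and 26.3% of other genes of each kind. For Orc1 it was 5 of the 34 (14.7%) and 12 of the 57 (21.1%), beside 25.2% and 14.3%. GTAAACA stood in 21 of the 34 (61.8%) beside 15.8% of such other genes, and in 23 of the 57 (40.4%) beside 16.0%.

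Gene spacing was similar. The median gap to the upstream protein-coding neighbour was 454 bp for mug genes and 461 bp for others, and 55 mug genes (60.4%) had a divergent neighbour, as did 54.7% of others. With a gap under 500 bp, 16 of 50 mug genes had a summit of some list (32.0%) beside 23.6% of others, and with a gap over 1000 bp 14 of 21 did (66.7%) beside 63.3%. No 2 mug genes shared a divergent promoter. The neighbours mug116 and mug86 lie in tandem 1178 bp apart, and mug177 with mug58, and mug57 with mug97, overlap in convergent direction. By chromosome, Atf1 summits stood at 9 of 46 mug genes on chromosome 1 (19.6%, beside 26.2% of others there), 6 of 23 on chromosome 2 (26.1%, beside 24.8%) and 8 of 22 on chromosome 3 (36.4%, beside 29.6%). Orc1 summits stood at 12 mug genes on chromosome 1 (26.1%, beside 15.7%), 2 on chromosome 2 (8.70%, beside 16.3%) and 3 on chromosome 3 (13.6%, beside 13.8%). Of the 10 members on chromosome 2 right of the mating-type region none had an Orc1 or Deb1 summit, beside 16.1% and 4.32% of others there, shares at which 10 genes hold few summits or none.

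Other gene lists of meiosis, chosen with earlier results known, were read in the same way. Of 19 meu genes, also named for expression in meiosis, 5 had an Atf1 summit (26.3%), 4 a Pcr1 summit (21.1%), 1 a Deb1 summit (5.26%) and 3 an Orc1 summit (15.8%), beside 26.3%, 20.6%, 6.22% and 15.6% of all genes outside the mug set. The tallest Atf1 and Pcr1 peaks were at meu31 (Atf1 4.13-fold, Pcr1 4.21-fold) and meu10 (3.18- and 3.80-fold). Among 20 genes of mating and meiotic entry, 7 had an Atf1 summit (35.0%), 5 a Pcr1 summit (25%), 2 a Deb1 summit (10%) and 2 an Orc1 summit (10%), beside the same backgrounds of 26.3%, 20.6%, 6.22% and 15.6%. They included ste6, the gene of a Ras exchange factor needed for mating (Atf1 4.83-fold, Pcr1 4.48-fold), rsv2 (3.50- and 4.49-fold) and mei2, a master regulator of meiosis (2.13- and 2.30-fold). Of 18 recombination and axis genes, Atf1 and Pcr1 each had a summit at 3 (16.7%, beside 26.3% and 20.6%), Deb1 at 0 (beside 6.22%) and Orc1 at 2 (11.1%, beside 15.6%). At rec12, the gene of the nuclease that breaks DNA in meiosis, Atf1 had a fold of 2.92, Pcr1 of 3.16 and Orc1 of 2.57. Of 17 sporulation genes, Atf1 had a summit at 3 (17.6%, beside 26.3%), Pcr1 at 1 (5.88%, beside 20.6%), Deb1 at 0 (beside 6.22%) and Orc1 at 5 (29.4%, beside 15.6%). The tallest were at spn5, a septin gene (Atf1 4.74-fold, Pcr1 6.43-fold), at -913 and -901 bp from its start.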

How the data were processed

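The 4 deposited peak lists were used as the authors gave them. Bowtie 1.2.3, MACS2 2.1.2 and bedtools are named in the submitters' processing notes. Settings, the genome build and the use of the controls are not given in the sources used here. Per peak, each deposited list gives a score, a fold enrichment (a ratio), −log10 q and the offset of the summit. The peak names carry the label of 1 library, and the summit offset pointed outside the interval in 129, 113, 93 and 109 peaks of Atf1, Pcr1, Deb1 and Orc1, where the midpoint was used.

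Genes and sequence came from RefSeq ASM294v3, whose chromosome 2 is 4539804 bp long while the lists reach 4551989. Right of 2160000 on chromosome 2, 12220 bp were subtracted from list positions, and 2110000 to 2160000 was left out. Peak coordinates are printed as deposited. Assignment was checked on planted summits. Other genes are all protein-coding genes outside the members, and a gene sharing a promoter counts in its own right. The members, gene lists and words were chosen with earlier results of these data known. The named genes are the 10 members of highest fold for Atf1 and for Pcr1, up to 8 for Deb1 and for Orc1, those at the limits of the window and neighbouring members, and up to 4 per other meiotic list. The remaining members, coding-span cases and the longer forkhead element were named after their values were seen. Work was done in Python 3.11.15 with pandas 2.3.3 and SciPy 1.17.1. The alternatives were a stricter peak threshold, other windows, starts, summits and members, nearest starts only, and leaving out repeats and chromosome ends or the moved part of chromosome 2.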

Additional observations from a re-analysis of the deposited data

How the results depend on the processing

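No paired analysis was possible because each protein has 1 list and no list separates its samples. Under 10 alternatives for each list, the difference between mug and other shares ranged from -3.22 to 4.63 points in Atf1, -1.32 to 3.69 in Pcr1, -1.28 to 4.15 in Deb1 and 0.30 to 5.71 in Orc1. Its sign thus changed for Atf1, Pcr1 and Deb1 and not for Orc1, while nothing was tested. Among genes whose annotated start is the start codon, a split outside these alternatives, the Orc1 share was lower in mug genes (14.7%, beside 25.2%). Among the rest it was higher (21.1%, beside 14.3%). Counts moved by over 1.5 times as follows, by construction where fewer peaks or more genes enter. A −log10 q of at least 10 left 13 mug genes with an Atf1 and 11 with a Pcr1 summit. A fold of at least 3 left 11 for Atf1, 10 for Pcr1, 4 for Orc1 and 9 with both Atf1 and Pcr1. A window from 500 bp upstream left 15 with Atf1 and 3 with TGACGT at an Atf1 or Pcr1 summit. Overlap of the interval in place of the summit gave 10 for Deb1 and 1 member with all 4 lists. Summits inside their interval left 3 for Deb1, and leaving out repeats and chromosome ends (50 kb) also left 3. Nearest starts left 3 members with TGACGT, and the palindrome TGACGTCA left 1. Adding the older mug names gave 43 for Atf1, 34 for Pcr1, 28 for Orc1, 28 with both Atf1 and Pcr1, 2 with all 4 lists and 9 with TGACGT, of 176 genes. Without the moved part of chromosome 2 the counts were 21, 18, 6 and 17 of 81 for Atf1, Pcr1, Deb1 and Orc1. The count of promoters with GTAAACA, in alternatives chosen after seeing the data, was 40 with the window set from the start codon (44.0%, beside 13.0% of others), 52 with 500 bases before the start (57.1%, beside 25.4%) and 38 with no base after it (41.8%, beside 14.4%), against 48.4% beside 16.0% as reported. Depth is unknown, so a missing peak does not show that a protein was absent.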

Other observations

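The 85 genes that carry a mug number only as an older name had summits of Atf1 at 20 (23.5%), Pcr1 at 14 (16.5%), Deb1 at 3 (3.53%) and Orc1 at 11 (12.9%), beside 26.3%, 20.6%, 6.22% and 15.6% of all genes outside the mug symbols, a set that includes these 85. The tallest Atf1 and Pcr1 peaks among them stood at sld3, a replication initiation gene (4.92- and 5.46-fold), say1 (4.85- and 5.46-fold) and tcb2 (3.83- and 4.70-fold), and at bqt1, whose product helps gather telomeres in meiosis, Atf1 had a fold of 4.70. At nep2 Deb1 had a fold of 4.77 and Orc1 of 3.79, and at dic1 they had 3.98 and 3.80. GTAAACA stood in 35 of the 85 promoters (41.2%), beside 15.5% of the 4919 genes with no mug name of either kind.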
